A study of Homo sapiens with 18 samples.

Results

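The interferon-stimulated genes described here are 48 genes that cells switch on when interferon reaches them. They were taken from a list of gene symbols, all 48 of which matched a row of the 63677 in the count table. Of these, 35 passed the filter on low counts (counts above 5 in 10 or more of the 18 libraries) and are among the 15576 genes tested, and 13 did not pass. The list was drawn up after the 2 control groups of these libraries had been compared, so values of that comparison are given as a description and without a test. Other earlier results of these data were also known when the list and the comparisons were chosen. The p-values of the TBX comparisons below take no account of that choice.

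The study asked what each of the T-box transcription factors TBX2, TBX3, TBX4 and TBX5 does to the transcripts of NCI-H1299 cells, a human lung carcinoma line that the labels call lung adenocarcinoma. All 18 RNA-sequencing libraries were made from total RNA of cells at passage 12 to 14 in low-glucose DMEM with fetal bovine serum, and there were 3 libraries, a to c, in each of 6 groups. TBX2 and TBX4 were human Flag-tagged pORF constructs, TBX3 was a human HA-tagged pCGN construct and TBX5 was a mouse HA-tagged pCGN construct, all brought in by transient Lipofectamine transfection. EV cells received empty vector, whose backbone is not named, and the treatment of the Ctl cells is not named in the labels. The time between transfection and RNA extraction is not given in the sources used here, and nothing says that the 3 libraries of a group came from separate cultures, so p-values measure the spread between these samples, which may be technical.

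Interferons bind receptors on the cell surface, and the receptor-bound kinases JAK1 and TYK2 then phosphorylate STAT proteins. These join IRF9 into a complex that binds a short repeated element, the interferon-stimulated response element, in front of its target genes. Many of the proteins made in this way act against viruses by sensing or cutting viral RNA, blocking translation, or trapping particles at membranes. Several of the genes can also be turned on directly by IRF3, IRF7 or IRF1 when a cell senses foreign nucleic acid.

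The response element is shown first, because it is the sequence feature that most of these genes have in common and that the list did not use. RefSeq promoter windows, which run from 250 bases before to 50 bases after the gene start in GRCh38.p14, were matched by symbol for 40 of the 48 genes. The element was searched for as GAAA, 2 bases of any kind and GAAA again, on both strands, and this was found in 26 of these 40 windows (65.0%), against 996 of all 27305 windows (3.65%). The letters TTCNNNGAA, the core of the gamma-activated element, were found in 10 of the 40 (25.0%), against 7.88% of all windows. The T-box letters AGGTGTGA were found in 0 of the 40, against 0.982% of all windows. A match says only that the letters are there. The lines below give the stretch that holds the element upstream of the start for 9 of the genes whose values are given library by library, with the 10 letters of each match in capitals, or a run of capitals where matches overlap, and a match on the other strand reads as a pair of TTTC.
IFI6, chr1:27672268-27672356, minus strand: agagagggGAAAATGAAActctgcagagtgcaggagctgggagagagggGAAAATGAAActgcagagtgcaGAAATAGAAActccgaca
ISG15, chr1:1013376-1013407, plus strand: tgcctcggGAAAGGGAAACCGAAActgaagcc
IFIT1, chr10:89392499-89392537, plus strand: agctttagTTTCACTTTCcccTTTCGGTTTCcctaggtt
IFIT3, chr10:89327833-89327892, plus strand: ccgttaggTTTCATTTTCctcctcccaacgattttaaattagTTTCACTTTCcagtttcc
IFI44, chr1:78649763-78649788, plus strand: acactgagTTTCAGTTTCctttctct
IFI27, chr14:94110620-94110658, plus strand: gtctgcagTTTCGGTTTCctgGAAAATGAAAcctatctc
OAS3, chr12:112938454-112938473, plus strand: ccgggcggGAAAACGAAAcc
DDX60, chr4:168318788-168318848, minus strand: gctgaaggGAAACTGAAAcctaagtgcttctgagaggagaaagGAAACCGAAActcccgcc
DDX60L, chr4:168480525-168480580, minus strand: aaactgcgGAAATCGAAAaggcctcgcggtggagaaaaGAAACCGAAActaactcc
IFI6 held 3 matches, and ISG15 held a pair that overlap. OAS3 held 2 matches upstream of the start, of which its line shows 1, and the match not shown lies 134 bases before the start.

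The libraries held 7365221 to 11743179 counts each, of which a single gene, ENSG00000266658, took 10.7% to 53.5%. Levels are therefore given as CPM, for which TMM scaling put the libraries on 1 size, and fold changes as log2 values from an edgeR fit of all 18 libraries, called at a Benjamini-Hochberg adjusted p under 0.1. Each of the 4 transfected genes was highest in its own group, with a mean of 4454 ± 367 CPM for TBX2, 21840 ± 3864 for TBX3 and 7952 ± 482 for TBX4 (SD, n = 3), and with 128, 230.1 and 242 CPM in the 3 libraries for TBX5, a mouse construct read on the human genome. TBX4 was also called higher than EV with TBX2 (log2 fold change 7.2), TBX3 (6.0) and TBX5 (7.2). TBX3 was also called higher than EV with TBX2 (0.80), TBX4 (1.91) and TBX5 (2.57). In EV the 4 genes together had 46, 65 and 84 counts in the 3 libraries, and the cause of these calls was not tested. The library titled 4c-TBX5 was placed with TBX4 by its number, and it held 85197 counts of TBX4 and 1 of TBX5. Keratins KRT8 and KRT18 and vimentin were present in all groups, and EPCAM and CDH1 had at most 3 counts in a library. Of 7 leukocyte markers HBB was at 0 in all libraries and the summed level of the list was 0.324 to 1.30 CPM with TBX2, 0.749 to 1.08 CPM in EV and at most 3.16 CPM in any library, and the 4 lung epithelium markers summed to at most 1.37 CPM. Bulk libraries cannot tell more cells expressing a gene from more RNA per expressing cell.

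**Figure D1:**
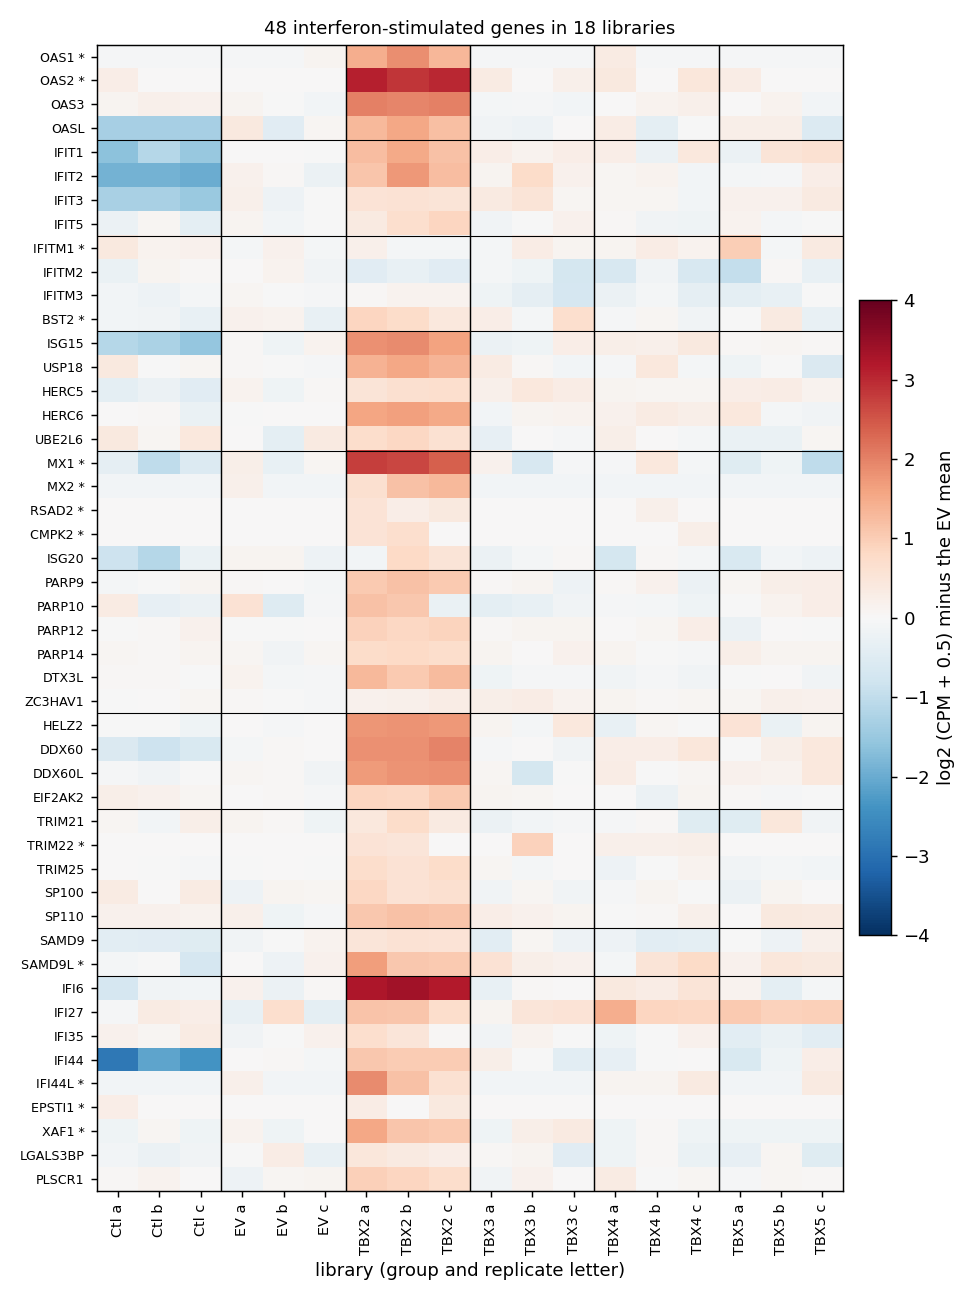
Level of each of the 48 genes (one line each, grouped by role; an asterisk marks the 13 under the filter) in each of the 18 libraries (columns, by group); colour gives log2(CPM + 0.5) minus the EV mean. The 3 TBX2 columns stand above EV for most genes, and the 3 Ctl columns stand below EV for OASL, IFI44, IFIT1, IFIT2, IFIT3 and ISG15.

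With TBX2 most of the tested interferon-stimulated genes rose. With TBX3, TBX4 and TBX5, 3, 3 and 1 of the 35 were called against EV. The shares of all tested genes called in these comparisons were 9.9%, 6.47% and 10.2%. The summed level of the 48 genes was 1096 ± 10.8 CPM with TBX2, against 546.5 ± 12.2 CPM in EV and 524.7 ± 3.73 CPM in Ctl, and it was 567.8 ± 10.8 CPM with TBX3, 555.1 ± 13.2 CPM with TBX4 and 560.0 ± 8.42 CPM with TBX5 (SD, n = 3). Against EV, 31 of the 35 tested genes were higher with TBX2 and 0 were lower, where 14.7% of all tested genes were called higher and 28.1% in either direction. Against Ctl, 32 of 35 were higher and 0 lower, beside 15.3% higher and 28.7% in either direction. The median log2 fold change of the 35 was 0.91 against EV and 1.09 against Ctl. In 26 of the 35, all 3 TBX2 libraries lay above the other 15, which was the case for 3.88% of all tested genes. With the libraries scaled by their totals in place of TMM, 15 of the 35 were called higher against EV, and the share of all tested genes is not given. KRT8, KRT18 and VIM moved the other way with TBX2, with called log2 differences from EV of -0.87 for KRT8, -0.61 for KRT18 and -0.26 for VIM. They were also called lower than EV with TBX3 (-0.53, -0.46 and -0.19), and KRT8 with TBX4 (-0.31). With TBX5 none of them was called, and KRT8 was at 0.18. Their part in the result was not tested.

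**Figure D2:**
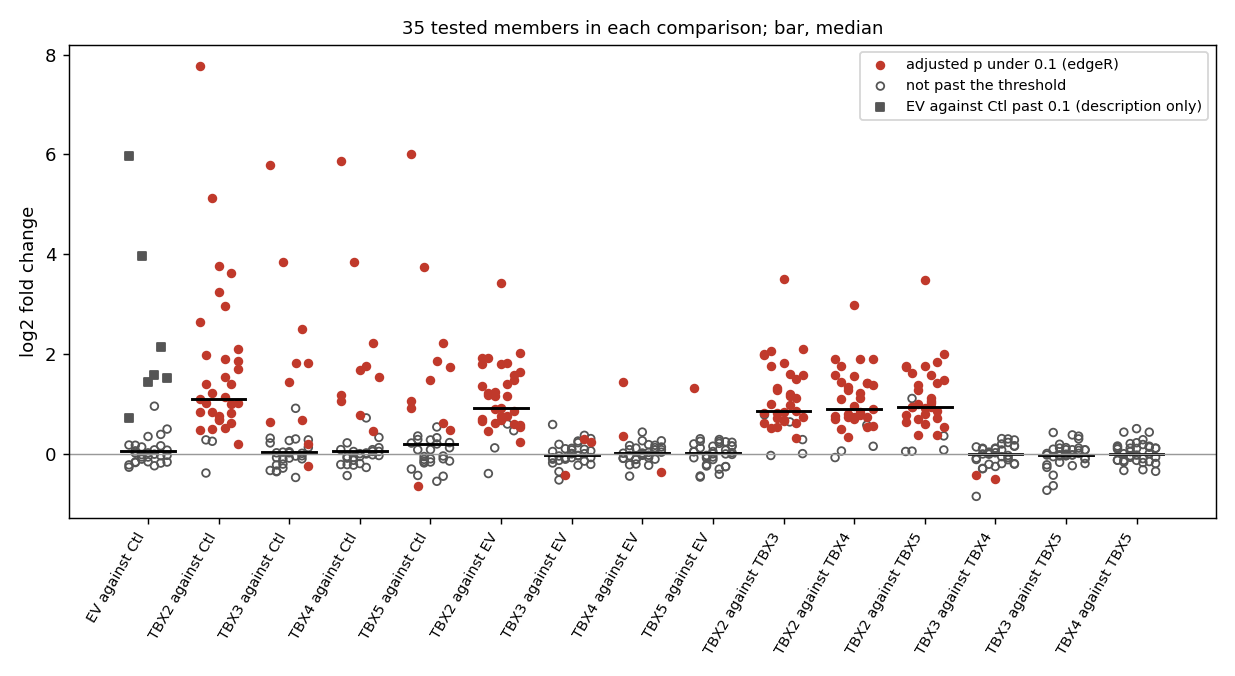
Log2 fold change (vertical axis) of the 35 tested genes in 15 comparisons (horizontal axis); each point is a gene and each bar the median of the 35. The median is 0.91 for TBX2 against EV and between -0.04 and 0.02 for TBX3, TBX4 and TBX5 against EV; the OASL values against Ctl are fitted against a group with 0 counts and are no bound.

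The OAS family makes the short oligoadenylates that switch on RNase L, which cuts RNA. OAS3 (ENSG00000111331, chr12:113375856-113414265, plus strand, as are all gene positions below on GRCh37) makes such chains. Its level was 27.5, 28.9 and 28.5 CPM in Ctl, 27.2, 25 and 23.6 in EV, 103, 100.2 and 104 in TBX2, 23.6, 24.5 and 23.3 in TBX3, 25.7, 27.9 and 29.1 in TBX4 and 25.3, 27.9 and 23.4 in TBX5. The TBX2 libraries stood far above the other 15, and within those all EV and all TBX3 libraries lay below all Ctl libraries by a small margin. On the log2 scale, an error after ± is an approximate SE. It is the size of the log2 fold change divided by the square root of its F statistic. OAS3 rose by 2.02 ± 0.07 (adjusted p = 2.96e-18) with TBX2 against EV and by 1.85 ± 0.07 (adjusted p = 1.50e-17) against Ctl. With TBX3 it was lower than in Ctl by a small amount (-0.25, adjusted p = 0.0546), a call that was lost without TBX3 a, TBX3 c, Ctl b or Ctl c (log2 fold changes of -0.25, -0.23, -0.24 and -0.25). OASL (ENSG00000135114, chr12:121455566-121477049, minus strand), an OAS-like protein without the synthetase activity, was at 0, 0 and 0 CPM in Ctl, 1.14, 0.428 and 0.827 in EV, 2.63, 3.21 and 2.43 in TBX2, 0.653, 0.602 and 0.771 in TBX3, 1.04, 0.466 and 0.738 in TBX4 and 0.996, 0.989 and 0.371 in TBX5. All Ctl libraries were at 0, every other library was above them, and the TBX2 libraries were the highest. Summed over a group these were 0 counts in Ctl, 27 in EV, and 70, 20, 27 and 16 in the TBX2, TBX3, TBX4 and TBX5 groups. Taking 3 counts over the Ctl group as the floor, OASL was at least 8.42-fold higher in EV, at least 29.7-fold higher with TBX2, and at least 7.38-fold, 7.86-fold and 8.66-fold higher with TBX3, TBX4 and TBX5. OASL rose with TBX2 against EV (1.80 ± 0.32, adjusted p = 1.59e-04).

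The IFIT family binds foreign RNA ends and blocks its translation, and all 4 of its listed genes rose with TBX2 against EV. IFIT1 (ENSG00000185745, chr10:91152303-91166244, plus strand) was at 1.86, 2.83 and 2.08 CPM in Ctl, 6.83, 6.85 and 6.68 in EV, 16.7, 20.3 and 16 in TBX2, 8.23, 7.52 and 8.27 in TBX3, 8.22, 5.67 and 9.32 in TBX4 and 5.64, 9.89 and 10.6 in TBX5. Its Ctl libraries were the lowest, its TBX2 libraries the highest, and the other 4 groups lay in between, where TBX4 and TBX5 overlapped both EV and TBX3. IFIT1 rose by 1.40 ± 0.16 (adjusted p = 3.40e-07) with TBX2 against EV. IFIT2 (ENSG00000119922, chr10:91043451-91069028, plus strand), of whose exon bases 13.6% are shared with other annotated genes, was at 1.96, 1.95 and 1.78 CPM in Ctl, 9.68, 8.88 and 7.19 in EV, 19.1, 29.4 and 20.7 in TBX2, 9.14, 14.6 and 9.67 in TBX3, 9.02, 9.39 and 7.94 in TBX4 and 8.07, 8.31 and 10.4 in TBX5. The order of the groups was the same, with Ctl at the bottom, TBX2 at the top and no overlap of either with the others. The log2 fold change of IFIT2 with TBX2 was 1.48 ± 0.16 (adjusted p = 6.19e-08) against EV. IFIT3 (ENSG00000119917, chr10:91087064-91137230, plus strand) was at 2.74, 2.74 and 2.37 CPM in Ctl, 8.77, 6.42 and 7.44 in EV, 11.2, 11.4 and 11 in TBX2, 9.8, 10.8 and 7.99 in TBX3, 7.98, 7.99 and 6.92 in TBX4 and 8.41, 8.51 and 9.65 in TBX5. Here the TBX2 libraries were again all above the other 15, but the highest TBX3 library came close to them. IFIT3 rose by 0.58 ± 0.13 (adjusted p = 0.00205) against EV, and the TBX2 and TBX3 groups differed by less than the test could call (0.28, adjusted p = 0.189). IFIT5, which showed no such gap between Ctl and EV (8.13 ± 1.39 and 9.23 ± 0.739 CPM), rose to 14.7 ± 2.58 CPM with TBX2 (0.66, adjusted p = 6.85e-04).

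**Figure D3:**
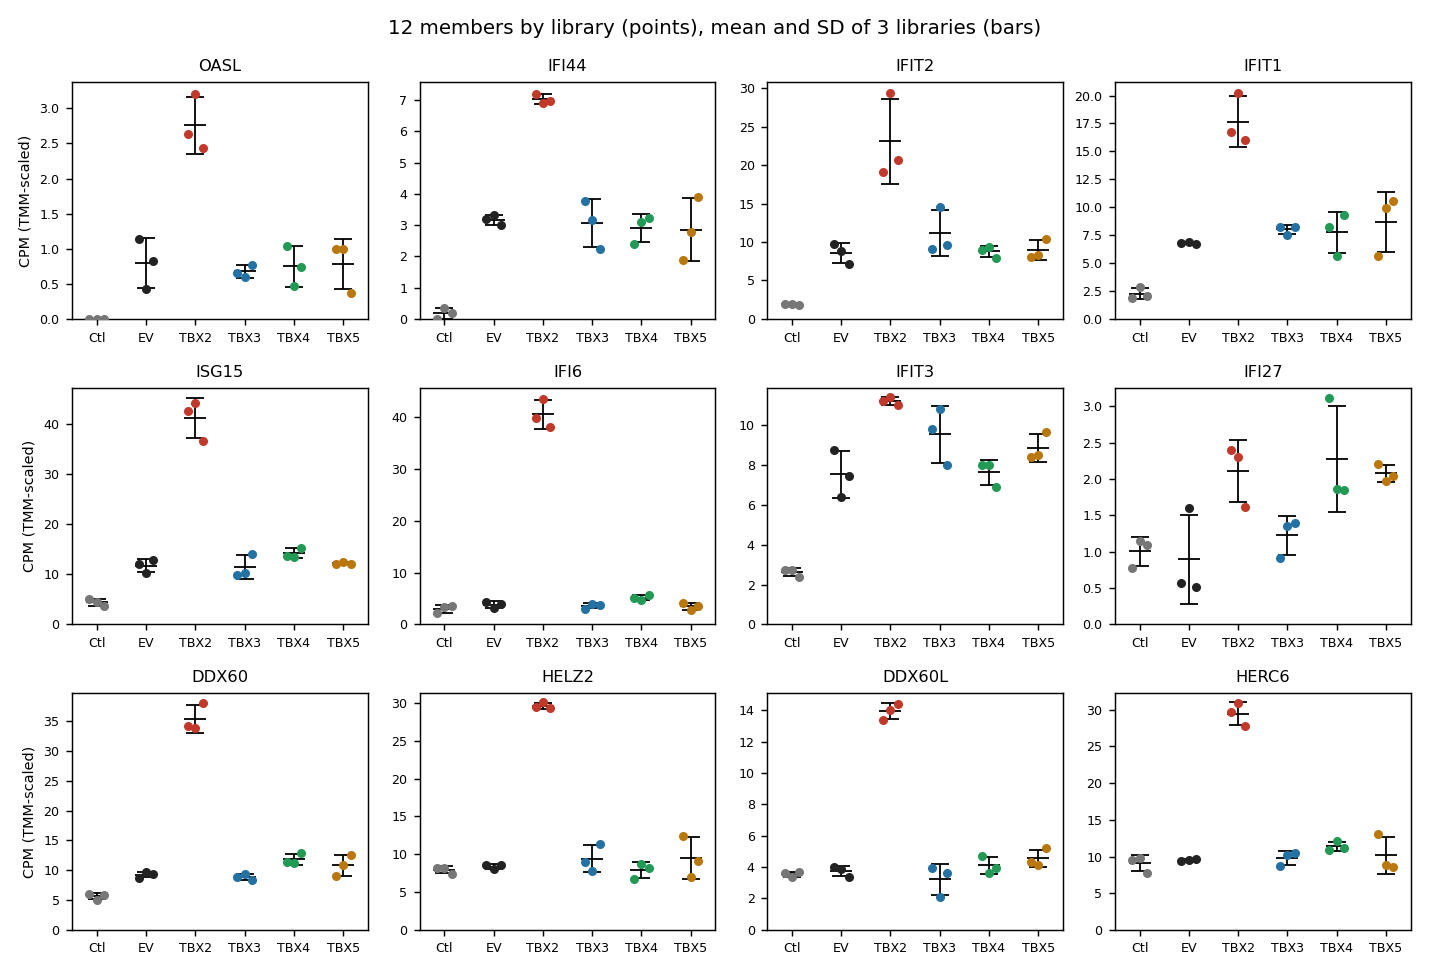
CPM (vertical axis, one scale per panel) of 12 of the genes in each library by group; points are libraries and bars the mean and SD of 3. The TBX2 points lie above all others in every panel except that of IFI27, and Ctl lies below all others for OASL, IFI44, IFIT1, IFIT2, IFIT3, ISG15 and DDX60.

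Among the membrane restriction factors, IFITM2 and IFITM3 hinder the fusion of viruses with endosomes, and neither was called with TBX2. IFITM3 was at 21.9 ± 1.08 CPM in EV and 23.6 ± 0.856 CPM with TBX2 (0.11, adjusted p = 0.488), and it was lower with TBX3 than in EV (-0.42, adjusted p = 0.019), a call that was lost without TBX3 c (-0.25). IFITM2 was at 8.86 ± 0.892 CPM in EV and 6.58 ± 0.472 CPM with TBX2 (-0.40, adjusted p = 0.156). These genes lie close together, with IFITM1 between them, and are nearly alike in sequence, so their split of the reads is uncertain.

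ISG15 is a ubiquitin-like protein that is attached to other proteins, and all 5 genes of its system rose with TBX2 against EV. ISG15 (ENSG00000187608, chr1:936518-949920, plus strand) had the highest level per length of the 48 genes when averaged over all libraries, at 18.2 CPM per kb of exon, with group means of 47.4 CPM per kb with TBX2, 13.5 in EV and 5.06 in Ctl, where EIF2AK2 was higher. It was at 4.98, 4.51 and 3.66 CPM in Ctl, 12.1, 10.3 and 12.8 in EV, 42.5, 44.2 and 36.6 in TBX2, 9.8, 10.2 and 14.1 in TBX3, 13.7, 13.5 and 15.3 in TBX4 and 12.1, 12.5 and 12.1 in TBX5. Ctl was the lowest group and TBX2 the highest, neither of them overlapping any other group, and the TBX4 libraries were all above those of EV. ISG15 rose by 1.80 ± 0.11 (adjusted p = 1.04e-12) with TBX2 against EV and by 3.23 ± 0.13 (adjusted p = 5.35e-17) against Ctl. HERC6 (ENSG00000138642, chr4:89299891-89364249, plus strand), a HECT-type ubiquitin ligase close to HERC5, was at 9.58, 9.82 and 7.81 CPM in Ctl, 9.34, 9.52 and 9.67 in EV, 29.6, 31 and 27.8 in TBX2, 8.75, 10.2 and 10.4 in TBX3, 10.9, 12.1 and 11.2 in TBX4 and 13.1, 8.9 and 8.53 in TBX5. The TBX2 libraries stood apart, Ctl and EV overlapped, and the TBX4 libraries were a little above both. Its log2 fold change against EV was 1.63 ± 0.11 (adjusted p = 1.74e-11). USP18, which takes ISG15 off its targets and dampens receptor signalling, went from 3.04 ± 0.136 CPM in EV to 9.0 ± 0.633 CPM with TBX2 (1.58, adjusted p = 1.23e-07). UBE2L6, the conjugating enzyme for ISG15, rose by 0.75 (adjusted p = 0.0137) against EV. Against Ctl its value was 0.50, adjusted p = 0.0899, a call that was lost when any 1 of the 6 libraries was left out (0.37 to 0.57) and by DESeq2. HERC5, the main ligase for ISG15, rose with TBX2 (0.60, adjusted p = 1.26e-05) and with TBX3 (0.30, adjusted p = 0.0446, a call lost without TBX3 b or EV b, at 0.22 and 0.25), and the TBX2 and TBX3 groups differed (0.30, adjusted p = 0.0245).

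Of the GTPases and nucleotide enzymes only ISG20, an exonuclease that degrades RNA, had enough counts to be tested. It was at 0.899 ± 0.439 CPM in Ctl, 1.77 ± 0.27 CPM in EV and 2.59 ± 0.915 CPM with TBX2. The difference was called against Ctl (1.54, adjusted p = 0.00178) and not against EV (0.59, adjusted p = 0.17).

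All 6 genes of the PARP family and its partner rose with TBX2 against EV. PARP9 and its partner DTX3L, which act together as an ADP-ribosyl transferase and ubiquitin ligase, rose by 1.15 and 1.23 (adjusted p = 1.65e-08 and 1.53e-11). PARP12 and PARP14, both mono-ADP-ribosyl transferases, rose by 0.90 and 0.75 (adjusted p = 1.10e-08 and 1.74e-08). PARP10, another such enzyme, was near the filter at 0.737 ± 0.474 CPM in EV and rose by 1.22 (adjusted p = 0.0301), a call that was lost without TBX2 a, TBX2 b, EV b or EV c (0.94 to 1.10). ZC3HAV1, the zinc-finger antiviral protein that binds CpG-rich RNA, rose by the smallest amount of the 31 called genes (0.22, adjusted p = 0.0109) and also rose with TBX3 (0.22, adjusted p = 0.0282), a call that was lost without TBX3 b or EV c (0.19 and 0.20).

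The helicases and the RNA-binding kinase all rose with TBX2. DDX60 (ENSG00000137628, chr4:169137442-169240034, minus strand), a helicase-like protein linked to RNA sensing, was at 6.06, 5.04 and 5.83 CPM in Ctl, 8.77, 9.63 and 9.35 in EV, 34.2, 33.9 and 38 in TBX2, 8.88, 9.33 and 8.34 in TBX3, 11.3, 11.2 and 12.9 in TBX4 and 9.07, 10.9 and 12.6 in TBX5. Ctl lay below every other library and TBX2 above every other library, with all TBX4 libraries above all EV libraries in between. DDX60 rose by 1.92 ± 0.10 (adjusted p = 4.47e-14) with TBX2 against EV. With TBX4 it was higher than in EV by 0.34 ± 0.11 (adjusted p = 0.0867), a call that was lost when any 1 of the 6 libraries of the comparison was left out (log2 fold change 0.28 to 0.38). DDX60L (ENSG00000181381, chr4:169277886-169458937, minus strand), its neighbour on chromosome 4, was at 3.62, 3.36 and 3.66 CPM in Ctl, 3.99, 3.85 and 3.37 in EV, 13.4, 14 and 14.4 in TBX2, 3.92, 2.11 and 3.64 in TBX3, 4.71, 3.65 and 3.97 in TBX4 and 4.31, 4.15 and 5.19 in TBX5. TBX2 stood alone at the top, and of the other 5 groups TBX5 lay just above Ctl, EV and TBX3. DDX60L rose by 1.92 ± 0.15 (adjusted p = 1.36e-10). HELZ2 (ENSG00000130589, chr20:62189439-62205592, minus strand), a helicase known as a nuclear receptor coactivator, was at 8.21, 8.23 and 7.42 CPM in Ctl, 8.54, 8.03 and 8.53 in EV, 29.4, 30.1 and 29.3 in TBX2, 9.01, 7.82 and 11.3 in TBX3, 6.79, 8.77 and 8.21 in TBX4 and 12.4, 6.92 and 9.09 in TBX5. Its 3 TBX2 libraries were close together and above all others, and the other 5 groups overlapped. The log2 fold change of HELZ2 was 1.82 ± 0.13 (adjusted p = 2.39e-11) against EV. EIF2AK2 (ENSG00000055332, chr2:37326353-37384665, minus strand), the kinase PKR, which stops translation when it binds foreign RNA, was the third of the 48 genes in level per length when averaged over all libraries, at 10.3 CPM per kb. Its group means were 9.84 CPM per kb in Ctl, 8.79 in EV and 16.5 with TBX2, and it lay above IFI6 in every group but TBX2. It was at 114, 108 and 103 CPM in Ctl, 98.5, 99.4 and 93 in EV, 175, 171 and 201 in TBX2, 105, 102 and 98.9 in TBX3, 97.2, 82.3 and 104 in TBX4 and 100.2, 93.6 and 95.2 in TBX5. TBX2 lay above the rest, and Ctl lay just above EV and TBX5. EIF2AK2 rose by 0.91 ± 0.08 (adjusted p = 7.28e-10), and with library totals this difference was 0.82 and no longer called.

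TRIM21 and TRIM25 are ubiquitin ligases of innate immunity, and SP100 and SP110 are proteins of nuclear bodies. All 4 rose with TBX2 against EV, by 0.61 for TRIM21 (adjusted p = 0.027), 0.67 for TRIM25 (adjusted p = 8.53e-08), 0.70 for SP100 (adjusted p = 7.70e-05) and 1.18 for SP110 (adjusted p = 5.98e-08). SAMD9, an antiviral protein, rose with TBX2 against EV (0.53, adjusted p = 0.00142) and was lower with TBX4 than in EV (-0.37, adjusted p = 0.079). The TBX4 call was lost without TBX4 b, TBX4 c, EV b or EV c (-0.39 to -0.28), by DESeq2, without the filter and with library totals. The TRIM21 call was lost without TBX2 b or EV c (0.44 and 0.50).

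IFI6 (ENSG00000126709, chr1:27992575-27998723, minus strand), a small mitochondrial and endoplasmic reticulum protein, rose more with TBX2 against EV than any other tested gene of the list. Its level per length was 10.6 CPM per kb averaged over all libraries and 43.3 CPM per kb with TBX2. It was at 2.15, 3.36 and 3.46 CPM in Ctl, 4.33, 3.1 and 3.94 in EV, 39.8, 43.6 and 38.2 in TBX2, 3.0, 3.91 and 3.79 in TBX3, 5.11, 4.73 and 5.63 in TBX4 and 4.2, 2.77 and 3.52 in TBX5. The lowest TBX2 library was several times above the highest of the others, Ctl and EV overlapped, and the TBX4 libraries came next, above all libraries but those of TBX2. IFI6 rose by 3.42 ± 0.13 (adjusted p = 1.12e-17) against EV and by 3.76 ± 0.14 (adjusted p = 5.37e-18) against Ctl, and 23.1% of its exon bases are shared with the annotated gene LINC02574. With TBX4 it was higher than in Ctl (0.77, adjusted p = 0.00841) and not called against EV (0.43, adjusted p = 0.175). IFI44 (ENSG00000137965, chr1:79115481-79129763, plus strand), a cytoplasmic protein, was at 0, 0.354 and 0.198 CPM in Ctl, 3.19, 3.32 and 2.99 in EV, 7.21, 6.92 and 6.96 in TBX2, 3.79, 3.16 and 2.24 in TBX3, 2.4, 3.1 and 3.23 in TBX4 and 1.88, 2.77 and 3.9 in TBX5. Ctl was close to 0 and below all others, TBX2 was above all others, and EV, TBX3, TBX4 and TBX5 overlapped. IFI44 rose with TBX2 against EV by 1.16 ± 0.21 (adjusted p = 1.62e-04).

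IFI27 (ENSG00000165949, chr14:94571182-94583032, plus strand), a small mitochondrial protein, had another pattern. It was at 0.782, 1.15 and 1.09 CPM in Ctl, 0.569, 1.6 and 0.509 in EV, 2.4, 2.31 and 1.62 in TBX2, 0.914, 1.35 and 1.4 in TBX3, 3.11, 1.86 and 1.85 in TBX4 and 2.21, 1.98 and 2.04 in TBX5. TBX2, TBX4 and TBX5 overlapped in the upper range, TBX3 and the controls lay below them without overlap, and the EV libraries were far apart from each other. IFI27 rose against EV by 1.36 ± 0.36 (adjusted p = 0.00676) with TBX2, by 1.44 ± 0.33 (adjusted p = 0.0104) with TBX4 and by 1.32 ± 0.38 (adjusted p = 0.0347) with TBX5, and was not called with TBX3 (0.58, adjusted p = 0.433). The test among the 4 TBX groups did not call it (adjusted p = 0.182). The TBX4 call was lost without EV c (1.04) or TBX4 a (1.14), and the TBX5 call without EV c (0.92), EV a (1.16) or TBX5 a (1.26). Under library totals the TBX2 value was 1.26 and no longer called. Without EV b the 3 values were 2.00, 2.08 and 1.96. Against Ctl, the TBX4 value was 1.17, adjusted p = 0.0261, a call lost without Ctl a (1.02) or TBX4 a (0.87), and the TBX5 value was 1.05, adjusted p = 0.0918, a call lost when any 1 of the 6 libraries was left out (0.90 to 1.16). PLSCR1, a scramblase that also acts in the nucleus, rose with TBX2 by 0.85 (adjusted p = 3.62e-07). IFI35, which binds the related protein NMI, rose with TBX2 against EV (0.45, adjusted p = 0.0558) and was lower with TBX5 than in Ctl (-0.65, adjusted p = 0.0541). The first call was lost without TBX2 a, TBX2 b, EV a or EV b (0.32 to 0.43) and by DESeq2, and the second without TBX5 a, TBX5 c or Ctl c (-0.64 to -0.58) and by DESeq2. LGALS3BP, a secreted glycoprotein, was called against Ctl (0.61, adjusted p = 0.051) and not against EV (0.46, adjusted p = 0.142). The call against Ctl was lost without TBX2 a, TBX2 b or Ctl b (0.56 to 0.62) and by DESeq2.

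The 13 genes under the filter had group means below 1 CPM in all groups but TBX2. MX1, a dynamin-like GTPase that traps viral particles, was at 0.293, 0 and 0.198 CPM in Ctl, 0.683, 0.321 and 0.573 in EV, 6.41, 6.02 and 4.86 in TBX2, 0.653, 0.15 and 0.491 in TBX3, 0.479, 0.854 and 0.462 in TBX4 and 0.221, 0.396 and 0 in TBX5. The TBX2 libraries were far above the others, none of which exceeded 0.854 CPM, where 3 counts stand for 0.191 to 0.593 CPM depending on the library. OAS2 had 86 counts over the 3 TBX2 libraries and 0 in EV, which makes it at least 39.0-fold higher with TBX2. OAS1 had 27 counts with TBX2 and 1 in EV, a ratio of 36.7 (exact 95% counting interval 6.05 to 1.50e+03). IFI44L had 22 counts against 1 (29.9, 4.84 to 1.23e+03), MX2 had 15 against 1 (20.4, 3.14 to 859) and XAF1, a partner of apoptosis inhibitors, had 21 against 2 (14.3, 3.49 to 126). The intervals are wide at this depth. SAMD9L was at 0.45 ± 0.126 CPM in EV and 1.83 ± 0.6 CPM with TBX2, and BST2, which tethers virus particles to the cell, was at 0.358 ± 0.145 and 0.86 ± 0.195 CPM. RSAD2, the enzyme viperin, had 4 counts over the TBX2 libraries and 0 in EV, CMPK2 had 5 and 0, and TRIM22 had 4 and 0, so that the bounds were 1.81-fold, 2.27-fold and 1.81-fold. EPSTI1 and IFITM1 had at most 3 counts summed over EV or over TBX2, and no fold is given for them. In an edgeR fit without the filter, over 40841 genes, 7 of the 13 were called higher with TBX2 than in EV, beside 5.23% of those genes, namely OAS2 (adjusted p = 1.38e-24), MX1 (1.53e-24), OAS1 (5.19e-06), IFI44L (8.67e-05), SAMD9L (1.66e-04), XAF1 (6.08e-04) and MX2 (0.00635).

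The number of the 35 tested genes called against EV was 3 with TBX3 (9.9% of all tested genes), 3 with TBX4 (6.47%) and 1 with TBX5 (10.2%). Those with TBX3 were HERC5 and ZC3HAV1, which rose, and IFITM3, which fell. Those with TBX4 were IFI27 and DDX60, which rose, and SAMD9, which fell, and with TBX5 only IFI27 was called. The counts ranged from 1 to 3, from 0 to 2 and from 0 to 2 when each of the 6 libraries of a comparison was left out in turn, and the TBX4 count was 0 without EV c and 1 without TBX4 a, TBX4 c or EV b, while the TBX3 count was 1 without TBX3 b and the TBX5 count 0 without EV a or EV c and 2 without TBX5 b. The log2 fold changes against EV ran from -0.53 (PARP10) to 0.58 (IFI27) with TBX3, from -0.45 (IFITM2) to 1.44 (IFI27) with TBX4 and from -0.47 (IFI35) to 1.32 (IFI27) with TBX5. Against Ctl, more were called, 10 with TBX3 (10.8% of all tested genes), 10 with TBX4 (9.71%) and 11 with TBX5 (10.1%). Each of these counts holds the 7 genes past the threshold in EV against Ctl, and the other 28 gave 3, 3 and 4. EV against Ctl was known when the list was written and uses the same Ctl libraries, so nothing is read from the counts against Ctl. The comparisons with EV and with Ctl share their TBX libraries, and the comparisons with 1 control share that control. Against both controls in the same direction, 30 of the 35 were higher with TBX2 (11.1% of all tested genes), 2 with TBX3 (4.03%), 2 with TBX4 (2.63%) and 1 with TBX5 (3.41%). Leaving out each of the 9 libraries of the 3 groups in turn gave 27 to 30 with TBX2, 0 to 3 with TBX3 (0 without TBX3 b), 0 to 2 with TBX4 (0 without TBX4 a or without EV c) and 0 to 1 with TBX5 (0 without any 1 of TBX5 b, TBX5 c, EV a, EV c or the Ctl libraries).

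Of the genes called higher than Ctl with TBX3, TBX4 or TBX5, 7 were also at a higher level in EV than in Ctl. In the EV against Ctl comparison, which was known when the list was written, these were OASL, IFI44, IFIT2, IFIT1, IFIT3, ISG15 and DDX60, out of 35, beside 0.186% of all tested genes. Nothing is read from that count. Beside the bound given for OASL, the log2 fold changes of the 7 in EV against Ctl are given with the approximate SE. They were 3.96 ± 0.43 for IFI44, 2.14 ± 0.24 for IFIT2, 1.57 ± 0.23 for IFIT1, 1.51 ± 0.17 for IFIT3, 1.43 ± 0.15 for ISG15 and 0.72 ± 0.13 for DDX60. The value of IFI44 was 3.43 without Ctl a and 4.82 without Ctl b. All 7 were called higher than Ctl with each of the 4 factors, in comparisons that use the same Ctl libraries. HERC5 was called higher than Ctl with each factor as well, and the remaining calls were ZC3HAV1 with TBX3, IFI6 and IFI27 with TBX4, and SAMD9 and IFI27 with TBX5. Among these, the ZC3HAV1 call was lost without TBX3 a, TBX3 b, Ctl a or Ctl b (0.15 to 0.19) and the SAMD9 call without TBX5 c (0.37). Against EV, the same 7 had a median log2 fold change of -0.00166 with TBX3, 0.07 with TBX4 and 0.07 with TBX5, with 0, 1 and 0 of them called. Against EV with TBX2 the 7 had a median of 1.48 and all 7 were called. The 7 were picked by their high level in these same EV libraries, which can lower their values against EV. Nothing is read from these medians and calls.

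**Figure D4:**
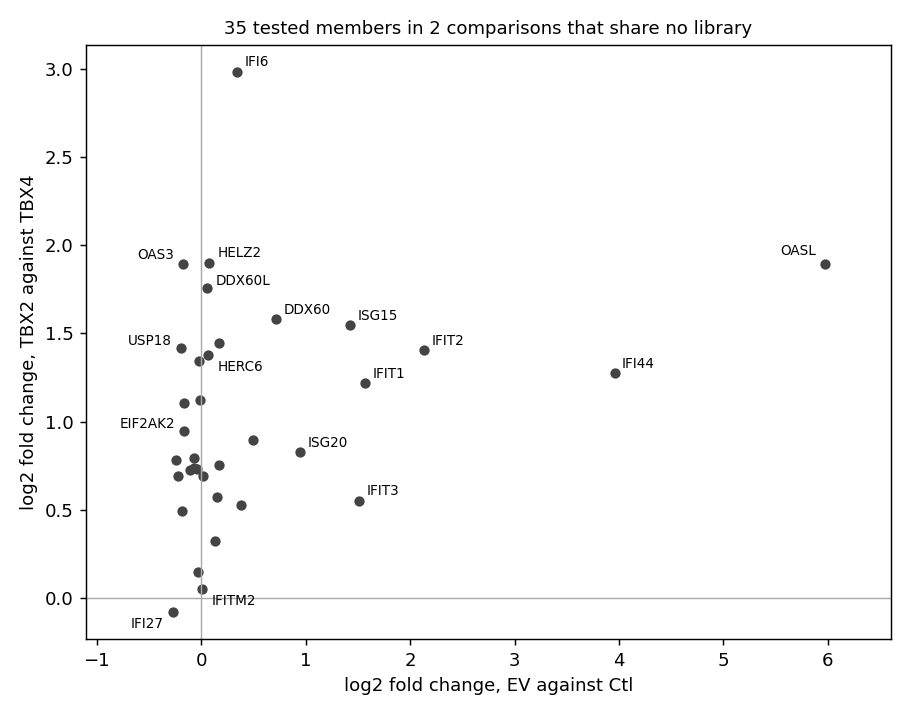
Log2 fold change of the 35 tested genes in EV against Ctl (horizontal axis) and in TBX2 against TBX4 (vertical axis), 2 comparisons that share no library. IFI44 and IFIT2 lie to the right, and IFI6, HELZ2 and OAS3 lie near 0 on the horizontal axis and above 0 on the vertical one; the horizontal positions were known when the list was drawn up and carry no test, and the horizontal value of OASL is fitted against 0 counts and is no bound.

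A comparison of TBX2 with the other TBX groups uses no control library. Between TBX2 and TBX4 the 7 genes past the threshold in EV against Ctl were all called, with log2 fold changes from 0.55 (IFIT3) to 1.89 (OASL). Of the other 28, 24 were called, and their values ran from -0.08 (IFI27) to 2.98 (IFI6). The split of the list by EV against Ctl was known beforehand, and nothing is read from it.

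The 4 TBX groups differed from one another in 30 of the 35 genes, beside 22.7% of all tested genes. The smallest adjusted p-values of this edgeR test with 3 degrees of freedom were 2.81e-20 for OAS3, 1.49e-19 for IFI6 and 8.67e-15 for DDX60. LGALS3BP, ISG20, IFI27, ZC3HAV1 and IFITM2 were not called. TBX2 was higher than TBX3 in 30 genes, where 8.01% of all tested genes were called higher and 15.5% in either direction. TBX2 was higher than TBX4 in 31 genes (6.66% and 12.3%) and higher than TBX5 in 30 genes (6.45% and 12.1%). TBX3 and TBX4 differed in IFI6 (-0.51, adjusted p = 0.0876) and DDX60 (-0.43, adjusted p = 0.0273), which were both lower with TBX3, beside 9.98% of all tested genes, and this count was 1 without TBX3 a, TBX3 b, TBX4 b or TBX4 c. Between TBX3 and TBX5, 0 of the 35 were called by edgeR and 0 by DESeq2, beside 7.41% of all tested genes, and 1 gene had an unadjusted p under 0.05. Between TBX4 and TBX5, 0 were called by edgeR and 0 by DESeq2, beside 0.539%, and 3 genes had an unadjusted p under 0.05. With the libraries scaled by their totals, 13 of the 35 were called higher with TBX4 than with TBX5, 18 higher with TBX2 than with TBX3 and 11 higher with TBX2 than with TBX4. The share of all tested genes called under this scaling is not given, so nothing is read from these counts. This scaling moved the median log2 fold change of all genes to 0.159 for TBX4 against EV and to -0.405 for TBX5 against EV.

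Genes with and without the promoter letters rose with TBX2. Of the tested genes with a matched window, 21 held the paired GAAA, of which 18 were called higher with TBX2 against EV with a median log2 fold change of 0.90, and 9 did not hold it, of which 9 were called with a median of 0.75. HELZ2 and HERC6 were among those without the letters. These shares are a description and were not tested.

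The upstream part of the pathway was read from lists of its ligands, receptors, kinases, transcription factors, sensors and feedback genes. No interferon gene had enough counts to be tested, and the 10 ligands together had 0 to 10 counts in a library. Together they had 6, 3 and 3 counts in the TBX2 libraries and 4, 1 and 7 in EV. IFNB1 had 2 counts over the 3 TBX2 libraries and 0 in EV, from which nothing is read. Of the transcription factors described here, IRF9, IRF7, IRF1 and STAT2 were higher with TBX2 than in EV, and IRF2, IRF3 and IRF5 were not called. IRF9, the DNA-binding partner of the STAT proteins, was at 0.911, 0.749 and 0.191 CPM in EV and 4.35, 5.92 and 4.53 CPM with TBX2 (3.19 ± 0.37, adjusted p = 2.35e-07), low in both and without overlap. IRF7 rose by 1.88 (adjusted p = 3.86e-07), IRF1 by 0.61 (adjusted p = 6.47e-04) and STAT2 by 0.51 (adjusted p = 1.64e-04). Among the sensors of viral RNA, IFIH1 (MDA5) rose by 1.22 and RIGI by 0.76 (adjusted p = 3.18e-10 and 2.01e-07), and 5 other tested sensors and adaptors were not called. RIGI, like the 7 genes above, had a higher level in EV than in Ctl (0.55 ± 0.09). Of 6 tested receptor chains 1 was called, IFNGR1 at 0.43, and of 4 tested kinases 1 was called, JAK1, which was lower by a small amount (-0.15, adjusted p = 0.0633), beside 28.1% of all tested genes called in either direction. SOCS3, a feedback inhibitor of this signalling, was lower with TBX2 than in EV (-0.61, adjusted p = 0.00403). Against EV, IRF3 was higher with TBX4 (0.48) and TBX5 (0.40), where 6.47% and 10.2% of all tested genes were called in either direction.

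**Figure D5:**
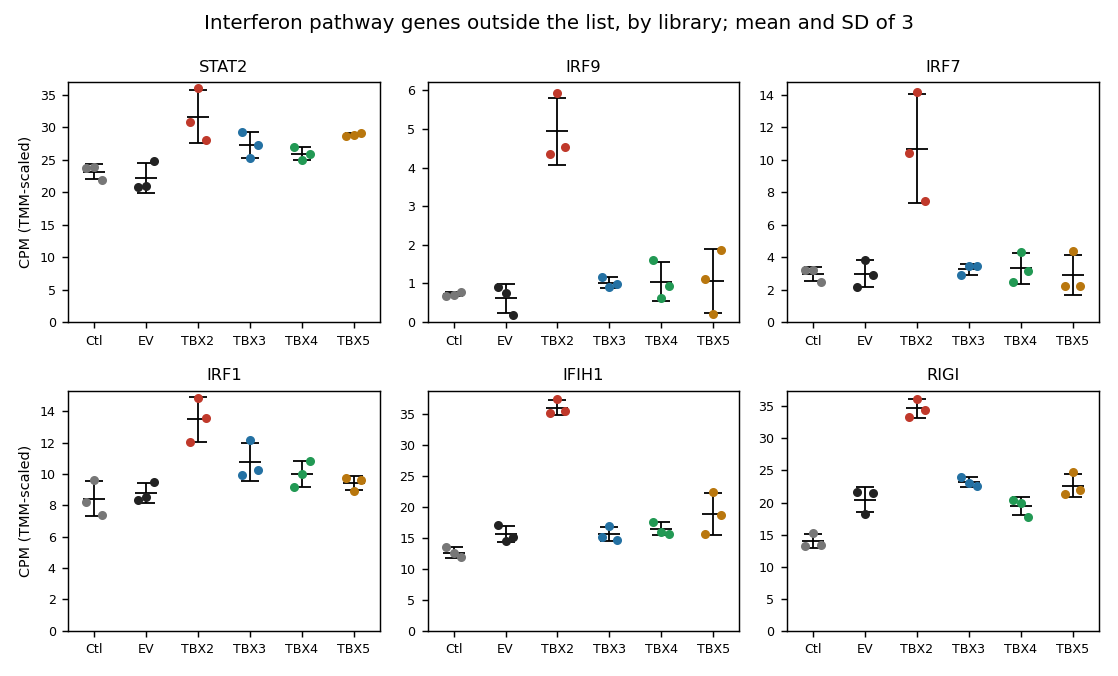
CPM (vertical axis, one scale per panel) of 6 genes of the interferon pathway outside the list in each library by group; points are libraries and bars the mean and SD of 3. IRF9, IRF7 and IFIH1 are highest in the TBX2 libraries, and RIGI is also higher in EV than in Ctl.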

How the data were processed

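The deposited table holds whole-number read counts per Ensembl gene for the 18 libraries. The submitters' processing notes name bcl2fastq 1.8.4, STAR 2.3.0, DESeq2 and the build GRCh37, and the authors counted reads per gene with featureCounts. Whether reads were assigned by strand is not given in the sources used here, so genes that share exon bases cannot be told apart there (38.3% of the bases of XAF1, 31.6% of IFITM1, 23.1% of IFI6, 19.4% of SP110, 16.3% of IFITM3 and 13.6% of IFIT2). Genes outside the list have this limit too, among them RIGI (43.2%), IRF9 (27.2%), VIM (24.6%), IRF1 (22.9%), KRT18 (20%) and IRF3 (19.3%).

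The 48 interferon-stimulated genes, the role lists, the pathway lists and the comparisons were chosen with earlier results of these data known, among them the difference between EV and Ctl. All 48 symbols matched a gene, and 3 pathway symbols matched as RefSeq synonyms (RIGI, CGAS and STING1). A few genes of the context lists are not reported here. Genes with counts above 5 in 10 or more libraries were kept. The counts of all 18 libraries were scaled by TMM and fitted by group in 1 quasi-likelihood model (edgeR 4.0.16, limma 3.58.1, R 4.3.3). Each TBX was compared with EV and with Ctl, the 4 TBX groups were compared by a test with 3 degrees of freedom, and p-values were adjusted by Benjamini-Hochberg over all 15576 tested genes, with a call at an adjusted p under 0.1. The scripts were tested on simulated data. Tables and figures were made with Python 3.11.15, pandas 2.3.3, scipy 1.17.1 and matplotlib 3.10.9.

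Values in every library are given for tested genes called in the same direction against both controls with at least 1 factor, up to the 12 with the largest mean of the 8 log2 fold changes, for the 3 with the highest level per length averaged over all libraries, the 3 with the largest change of EV against Ctl and the 3 with the smallest p among the TBX groups. MX1 was added after its values were seen. Library depth was 7365221 to 11743179 counts, which after TMM scaling puts the floor of 3 counts at 0.191 to 0.593 CPM. Exact 95% intervals and floors cover counting error only. The alternatives were DESeq2 1.42.0, its size factors, library totals, library totals without the most counted gene (chosen after seeing the data), no filter, a stricter filter (every library at 10 counts or more), a replicate block, separate fits of each pair of groups, and leaving out each library.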

Additional observations from a re-analysis of the deposited data

Results flagged for a closer look

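The 4 TBX groups differed from one another in 30 of the 35 tested interferon-stimulated genes by the edgeR test with 3 degrees of freedom, and these differences between groups were marked for a closer look. Of the genes given library by library, those with the smallest adjusted p in this test were OAS3 (2.81e-20), IFI6 (1.49e-19) and DDX60 (8.67e-15). In all of them the TBX2 libraries were the high ones. The group means of OAS3 were 102 ± 1.97 CPM with TBX2 and 23.8 ± 0.612, 27.6 ± 1.7 and 25.5 ± 2.27 CPM with TBX3, TBX4 and TBX5. IFI6 had 40.6 ± 2.79 CPM with TBX2 and 3.57 ± 0.491, 5.16 ± 0.45 and 3.5 ± 0.717 CPM with the others in the same order. DDX60 had 35.4 ± 2.3 CPM with TBX2 and 8.85 ± 0.494, 11.8 ± 0.965 and 10.8 ± 1.77 CPM with the others (SD, n = 3). Groups of 3 libraries are too small for a test of single outlying libraries, and none was made.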

How the results depend on the processing

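Scaling by library totals changed the most counts. No share of all tested genes is given for the counts under the alternatives. The number of the 35 genes called became 15 for TBX2 against EV, 0 for TBX3 against EV, 1 for TBX4 against EV, 0 for TBX5 against EV, 6 for TBX3 against Ctl, 6 for TBX5 against Ctl, 18 for TBX2 against TBX3, 11 for TBX2 against TBX4, 0 for TBX3 against TBX4 and 13 for TBX4 against TBX5, and the number higher than both controls became 15 for TBX2, 0 for TBX3, 1 for TBX4 and 0 for TBX5. This scaling moved the median log2 fold change of all genes by -0.41 (TBX5 against EV) to 0.36 (TBX4 against Ctl), and by -0.08 for TBX2 against EV; 1 gene took up to 53.5% of a library's counts. Library totals without that gene gave 1 for TBX3 against EV, and 0, 1 and 0 higher than both controls with TBX3, TBX4 and TBX5. Without the filter there was 1 for TBX3 against EV and 1 for TBX3 against TBX4, with 0, 1 and 0 higher than both controls. DESeq2 gave 1 for TBX4 against EV, 1 for TBX3 against TBX4, and 1 and 0 higher than both controls with TBX4 and TBX5. At least 10 counts in every library gave 0 for TBX5 against EV, and 1 and 0 higher than both controls with TBX4 and TBX5. Separate fits gave 1 higher than both controls with TBX3. Beyond these, the cause of the differences was not tested.

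Leaving out each library of the groups compared in turn gave 28 to 31 for TBX2 against EV, 29 to 31 for TBX2 against Ctl, 28 to 32 among the TBX groups, 1 to 3 for TBX3 against EV, 0 to 2 for TBX4 against EV, 0 to 2 for TBX5 against EV and 1 to 2 for TBX3 against TBX4, and 27 to 30, 0 to 3, 0 to 2 and 0 to 1 higher than both controls with TBX2, TBX3, TBX4 and TBX5. For the genes given library by library, no direction was reversed. Of their called values, 461 of those recomputed under another setting stayed past the threshold and 19 did not, and with a library left out 354 did and 24 did not. These tallies include values of EV against Ctl. They leave out values for which a setting filtered out the gene or gave no adjusted p.

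Letters a to c were not treated as pairs, and the correlations given here do not settle whether they pair the libraries. Deviations of same-letter libraries from their group means correlated between -0.101 and 0.16 (median -0.00355), those of other letters had a median of 0.00459, and 10 of 18 libraries correlated best with their own letter. The replicate block gave 32 for TBX2 against EV, 2 for TBX4 against EV (without SAMD9), 10 for TBX5 against Ctl (without IFI27), 1 for TBX3 against TBX4 and 0 higher than both controls with TBX5. Depth limits the 13 genes under the filter and OASL, IFI44, IFI27, PARP10 and ISG20, whose levels were near the floor in at least 1 group.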

Other observations

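Some genes of the pathway outside the list were called with the other factors. Against EV, the shares of all tested genes called were 9.9% with TBX3, 6.47% with TBX4 and 10.2% with TBX5. In the same order, 0, 0 and 1 of 6 tested receptor chains were called, and 1, 0 and 0 of 4 kinases. Of 7 tested sensors and adaptors, 0 were called with each. Nothing is read from these calls about the pathway as a whole. With TBX3, STAT2 (0.28, adjusted p = 0.0621) and TBK1, the kinase that activates IRF3 (0.28, adjusted p = 0.0432), were higher than in EV by the edgeR fit. With TBX4, IRF3 was higher (0.48, adjusted p = 0.0187) and IRF2, a repressor of interferon responses, was lower (-0.56, adjusted p = 0.0441). With TBX5, STAT2 (0.36, adjusted p = 0.0215), IRF3 (0.40, adjusted p = 0.0717), IRF5 (1.47, adjusted p = 0.068) and the receptor chain IFNGR1 (0.31, adjusted p = 0.0768) were higher. Against Ctl, RIGI was higher with TBX3 (0.73), TBX4 (0.48) and TBX5 (0.68), and IFIH1 was higher with TBX4 (0.38) and TBX5 (0.54). Of all tested genes, 10.8%, 9.71% and 10.1% were called against Ctl with TBX3, TBX4 and TBX5, and 28.7% with TBX2. Against EV, RIGI was not called with TBX3 (0.17), TBX4 (-0.08) or TBX5 (0.13), and neither was IFIH1. TLR3, the endosomal sensor of viral RNA, was higher with TBX2 than in Ctl (1.29, adjusted p = 0.0177), and MAVS, the adaptor of RIGI and IFIH1, was lower (-0.39, adjusted p = 0.0127). Whether these genes and the interferon-stimulated genes are linked was not tested.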
